A study of Rattus norvegicus with 11 samples.

Results

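Brca1, Brca2, Bard1, Nbn, Mdc1, Ube2t and Usp1 are 7 genes of the repair of broken and crosslinked DNA. They were taken by name, through the gene symbols of the platform annotation, and all 7 were found: 8 of the 15866 probe sets tested carry one of these symbols, with 2 for Usp1 and 1 for each other gene. Transcripts were measured on 11 Affymetrix rat expression arrays hybridised with RNA of REF52, an established line of rat embryo fibroblasts. All cells had been grown in 10% serum and then kept for 48 hours in 0.25% serum before infection. The control groups received a control adenovirus labelled CMV, and the other groups an adenovirus expressing E2F1, a transcription factor that drives entry into S phase. Cells with each virus were then left in deprivation medium, given serum, or given serum with LY294002, an inhibitor of phosphoinositide 3-kinase (PI3K). There are 2 arrays of each of the 6 combinations, except for the deprived cells with control virus, which have 1 array. The 6 groups come from 1 cell line, and the level of the virus-borne E2F1 is not analysed here because no probe set has that symbol alone. The title of the series asks how an expression program that depends on E2F1 sets proliferation against cell death.

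BRCA1 and BARD1 form a ubiquitin ligase that acts at DNA breaks and stalled replication forks, and BRCA2 acts in homologous recombination, which repairs a break by copying the sister chromatid. NBN is the signalling subunit of the MRE11-RAD50-NBN complex, which binds broken ends and activates the kinase ATM, and MDC1 is the scaffold that reads the phosphorylated histone H2AX beside them. In the Fanconi pathway, which unhooks DNA crosslinks, UBE2T is the ubiquitin-conjugating enzyme that marks FANCD2 and FANCI, and USP1, with its partner WDR48, is the deubiquitinase that removes the mark. Most of these genes are transcribed mainly in dividing cells, and cultured fibroblasts held without serum leave the cell cycle.

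The promoters of 4 of the genes that rose with E2F1 are shown first: Bard1 and Usp1, which hold an E2F-type word, and Brca2 and Ube2t, which hold none. Each is the RefSeq window of build GRCr8 from 250 bases before to 50 bases after the start site, read 5′ to 3′ on the gene's strand. Capitals mark any of the words searched on both strands: the E2F-type words TTTCCCGC, TTTGGCGC, TTTCGCGC and TTTGCCGC, the CCAAT word bound by NF-Y, and TTTGAA, the word of the cell-cycle element called CHR.
Bard1, chr9:80143706-80144005, minus strand: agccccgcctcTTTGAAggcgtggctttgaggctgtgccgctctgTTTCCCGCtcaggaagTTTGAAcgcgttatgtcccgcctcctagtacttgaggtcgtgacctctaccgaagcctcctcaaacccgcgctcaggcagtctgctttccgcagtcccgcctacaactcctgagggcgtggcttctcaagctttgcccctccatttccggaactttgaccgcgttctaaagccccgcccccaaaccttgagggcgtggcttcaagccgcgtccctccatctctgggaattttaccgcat
Usp1, chr5:118702806-118703105, plus strand: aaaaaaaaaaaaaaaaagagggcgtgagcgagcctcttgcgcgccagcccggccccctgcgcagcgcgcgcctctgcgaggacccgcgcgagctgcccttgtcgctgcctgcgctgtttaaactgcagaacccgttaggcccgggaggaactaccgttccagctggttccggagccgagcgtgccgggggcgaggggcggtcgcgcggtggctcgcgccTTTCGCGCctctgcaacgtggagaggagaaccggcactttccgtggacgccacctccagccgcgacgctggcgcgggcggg
Brca2, chr12:4895197-4895496, plus strand: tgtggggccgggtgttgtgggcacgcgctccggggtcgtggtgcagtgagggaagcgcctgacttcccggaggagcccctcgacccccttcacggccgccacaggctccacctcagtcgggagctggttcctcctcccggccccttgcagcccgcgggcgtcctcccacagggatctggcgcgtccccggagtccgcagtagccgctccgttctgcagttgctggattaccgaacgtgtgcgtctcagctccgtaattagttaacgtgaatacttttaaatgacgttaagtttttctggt
Ube2t, chr13:48954916-48955215, plus strand: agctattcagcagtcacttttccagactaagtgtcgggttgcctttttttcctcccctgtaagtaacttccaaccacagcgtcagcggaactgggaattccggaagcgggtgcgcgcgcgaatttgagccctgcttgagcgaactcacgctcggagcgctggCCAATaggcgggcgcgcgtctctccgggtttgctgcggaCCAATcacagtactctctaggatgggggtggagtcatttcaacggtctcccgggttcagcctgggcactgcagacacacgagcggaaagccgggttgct

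Windows were matched by symbol for 5 of the 7 genes, these 4 and Brca1; none was used for Nbn and Mdc1. An E2F-type word lay in 2 of the 5 windows, against 2.14% of all 33469 windows of this length in the table. In Bard1 it is TTTCCCGC, at positions -205 to -198 from the start site, and in Usp1 it is TTTCGCGC, at -31 to -24. With TTTCCCGC and TTTGGCGC alone, 1 of the 5 windows and 1.45% of all windows held a word. The Bard1 window also has TTTGAA at -239 to -234 and at -189 to -184, a word found in 18.3% of windows. The CCAAT word was in 2 of the 5 windows, Ube2t (-88 to -84 and -49 to -45) and Brca1 (-156 to -152), and in 37.5% of all windows. These matches describe letters in a window and say nothing of binding in REF52 cells. The 5 windows held 54.3% to 68.7% G and C, against a median of 51.7% over all windows, and the shares above were not matched for this.

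The values are the authors' array signals on a linear scale, and changes are differences of log2(signal + 16) with their standard error (SE) from limma, which fits all probe sets and all arrays together. A probe set was called where its Benjamini-Hochberg adjusted p over the 15866 probe sets was under 0.05. Whether the arrays of a group stand for independent cultures is not stated in the labels; p-values therefore reflect array-to-array spread alone, possibly technical, and the number of arrays limits the precision. Array medians ran from 172.7 to 207.6, and the arrays of a group correlated at 0.959 to 0.984 over probe sets. RNA quality was read from how far the 3′ probe sets of the Gapdh and actin controls exceed their 5′ probe sets, in log2 units: by 0.51 to 0.76 on the 3 deprived arrays, by 0.90 on the second E2F1 array with LY294002, and by 0.12 to 0.33 on the other 7. Of 10 fibroblast markers 9 were above the array median on every array, while Thy1 had signals of 36.0 to 124.3; their summed signal was 90200 to 130800 on control and 77490 to 104200 on E2F1 arrays, and 2 (Pdgfrb and Sparc) fell with E2F1. Markers of other cells were dim, except Krt8 with signals of 123.5 to 574.4, and none was at 0: the sums were 213.2 to 645.2 against 159.8 to 434.3 for 5 epithelial markers (mostly Krt8, with Cdh1 at most 6.55), 33.8 to 77.0 against 51.2 to 107.1 for 3 endothelial markers (2 rose, Kdr and Tie1) and 91.6 to 166.9 against 88.7 to 140.7 for 3 leukocyte markers (1 fell, Ptprc). The part of these markers in the results was not tested.

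E2F1 against control virus, averaged over the 3 media, moved all 7 genes past the test: Brca1, Brca2, Bard1, Mdc1, Ube2t and Usp1 rose, and Nbn fell. The median log2 change of the 7 was 2.42, against -0.04 over all probe sets, of which 9.23% were called higher and 7.25% lower. The 7 were chosen with earlier results of these data known, so the background describes them and does not test them independently. For the 6 genes that rose, each of the 6 E2F1 arrays was above each of the 5 control virus arrays, which held for 6.05% of all probe sets. The reverse held for 3.59% of probe sets and not for Nbn. In RNA from whole cultures, fewer cells with a transcript and less of it per cell cannot be told apart.

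Brca2, the homologous recombination gene, had the largest change with an offset of 16 or 1, but not with 64, where Usp1 by 1376687_at (2.63) and Ube2t (2.59) were above it. On the control virus arrays its signal was 19.2 and 25.9 in serum, 24.3 and 17.8 with LY294002, and 18.8 in deprivation. On the E2F1 arrays it was 444.3 and 408.2 in serum, 510.3 and 360.1 with LY294002, and 236.1 and 296.6 in deprivation. The control values lie close to the offset of 16, so no fold is given, and the log2 change of 3.38 ± 0.14 (adjusted p = 8.155e-05 by limma) ranged from 2.34 with an offset of 64 to 4.08 with an offset of 1.

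The ligase pair changed less evenly. Bard1 was the dimmest of the 8 probe sets on control arrays, with signals of 9.26 and 6.70 in serum, 7.04 and 10.1 with LY294002, and 3.40 in deprivation, all under the offset; no detection calls were used, so whether it was expressed there is not known. With E2F1 its signals were 241.8 and 136.6 in serum, 203.4 and 74.3 with LY294002, and 28.5 and 57.2 in deprivation, a log2 change of 2.38 ± 0.28 (adjusted p = 0.002032) on average, which ran from 1.28 to 3.77 with the offset. Brca1, its partner, had control signals of 39.4 and 39.3 in serum, 54.3 and 30.8 with LY294002, and 47.6 in deprivation. With E2F1 it was at 226.2 and 149.4 in serum, 228.8 and 109.9 with LY294002, and 106.9 and 110.6 in deprivation, so the lowest E2F1 array was still above the highest control array. Its change of 1.48 ± 0.22 (adjusted p = 0.004289) was the smallest of the 6 that rose.

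Both Fanconi ubiquitin genes rose, the conjugating enzyme and the deubiquitinase alike. Ube2t went from control signals of 62.0 and 83.7 in serum, 77.1 and 66.3 with LY294002, and 74.4 in deprivation to 794.4 and 557.2 in serum, 910.0 and 933.4 with LY294002, and 695.7 and 736.4 in deprivation (log2 change 3.13 ± 0.13, adjusted p = 8.155e-05). The control arrays differed little between media, and the E2F1 arrays with LY294002 were the highest. Usp1 by probe set 1376687_at rose 7.60-fold (2.93 ± 0.16, adjusted p = 0.0002981), from 191.3 and 324.3 in serum, 183.1 and 149.0 with LY294002 and 119.6 in deprivation to 1160 and 1078, 1514 and 1999, and 1464 and 1386 in the same order. Its other probe set, 1373538_at, had 97.3 to 277.0 on control arrays and 701.2 to 1143 on E2F1 arrays and rose 6.34-fold (2.66 ± 0.22, adjusted p = 0.000843). Both probe sets had every E2F1 array above every control array.

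The break-site genes went opposite ways. Mdc1, the scaffold, rose 5.33-fold (2.42 ± 0.16, adjusted p = 0.0004792), from 158.3 and 166.2 in serum, 128.6 and 139.5 with LY294002 and 142.5 in deprivation to 912.6 and 538.9, 1178 and 958.4, and 872.0 and 760.4. Nbn fell 1.38-fold (-0.47 ± 0.13, adjusted p = 0.04576). Its signals were 368.2 and 455.6 in serum, 420.8 and 321.1 with LY294002 and 470.0 in deprivation with control virus, and 310.3 and 273.7, 289.7 and 246.1, and 359.5 and 301.0 with E2F1. Within each medium the E2F1 arrays were lower, but across media they overlapped, since the second control array with LY294002 (321.1) lay under the first deprived E2F1 array (359.5). The Nbn call sits near the threshold: leaving out 1 array at a time kept the change between -0.53 and -0.41, and 2 of 10 such fits called it, those leaving out, of the arrays with LY294002, the second with control virus or the first with E2F1 (adjusted p = 0.03428 and 0.04541). Without each of the other 8 arrays the adjusted p was 0.06679 to 0.1152, and without the 1 deprived control array the average could not be fitted.

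**Figure D1:**
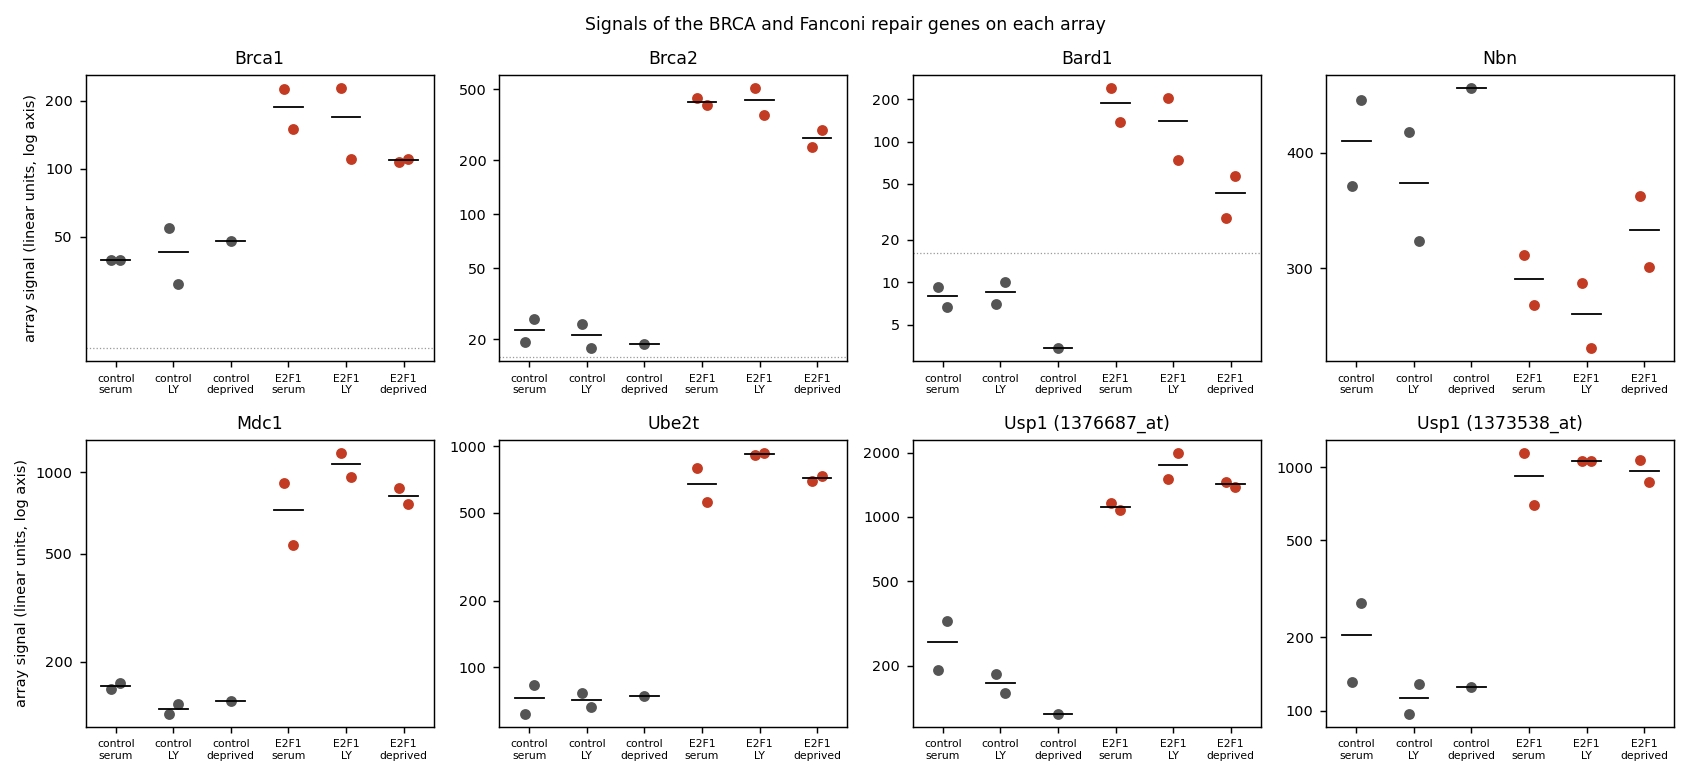
Signal of each of the 8 probe sets (vertical axis, linear units on a log axis) on each of the 11 arrays, by virus and medium (horizontal axis; LY is LY294002). Points are arrays, bars are group means, and the dotted line, where drawn, is the offset of 16. For every gene except Nbn the 6 E2F1 arrays (red) lie above the 5 control virus arrays (grey); for Nbn, E2F1 arrays run from 246.1 to 359.5 and control arrays from 321.1 to 470.0.

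Taken by medium, the 6 genes that rose in the average were above control in every medium, and Nbn was below it in each. In serum 5 of the 7 genes were called higher (0.29% of all probe sets were): Brca2 (log2 change 3.52 ± 0.22, adjusted p = 0.004872), Bard1 (3.05 ± 0.44, adjusted p = 0.04573), Ube2t (2.95 ± 0.22, adjusted p = 0.004872), Usp1 (2.09 ± 0.26, adjusted p = 0.04021) and Mdc1 (2.01 ± 0.25, adjusted p = 0.04021). Brca1 stood at 1.85 ± 0.35 (adjusted p = 0.08088), and Usp1 by 1373538_at, which does not stand for the gene, at 2.14 ± 0.36 (adjusted p = 0.07328). The serum calls of Bard1, Mdc1 and Usp1 are marginal. Leaving out the deprived control array cannot change this fit, since that group has 1 array and is not compared here. Without any 1 of the other 10 arrays the count was below 5. Without the first control or the first E2F1 array in serum the 7 lost every call. Calls over all probe sets, 56 in the main fit, fell as well, except without the second control array in serum. The changes stayed at 2.67 to 3.43 for Bard1, 1.64 to 2.38 for Mdc1 and 1.74 to 2.45 for Usp1 by 1376687_at.

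With LY294002, 6 of the 7 were called higher (3.78% of all probe sets). Brca2 (3.59 ± 0.22), Ube2t (3.42 ± 0.22, 10.7-fold), Usp1 (3.28 ± 0.26, 9.69-fold) and Mdc1 (2.85 ± 0.25, 7.19-fold) had adjusted p between 0.001574 and 0.004375 by limma and were called without any 1 array. Bard1 (2.52 ± 0.44, adjusted p = 0.02409) lost its call without the first or the second control array with LY294002 (adjusted p = 0.08731 and 0.07135). Brca1 (1.61 ± 0.35, adjusted p = 0.04014) kept its call without the second E2F1 array with LY294002, the array with the 3′ to 5′ difference of 0.90. It also kept its call without the deprived control array, but leaving that array out cannot change this fit. Without each of the other 9 arrays its adjusted p was 0.05714 to 0.1304. With both second arrays with LY294002 left out, the calls of these genes were lost, as were those of all other probe sets, with Brca2 at 3.71.

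In deprivation medium 4 of the 7 were called higher (2.19% of all probe sets), on 2 arrays against 1. Usp1 (3.41 ± 0.32, 10.6-fold), Ube2t (3.02 ± 0.26, 8.10-fold) and Brca2 (3.01 ± 0.28) each had an adjusted p of 0.01369 by limma, and Mdc1 rose 5.24-fold (2.39 ± 0.31, adjusted p = 0.02141). The order of these sizes turns with the offset, since Brca2 gave 3.75 with an offset of 1 and 1.99 with 64, and Usp1 3.56 and 3.02. Bard1 (1.56 ± 0.54, adjusted p = 0.161) and Brca1 (0.97 ± 0.42, adjusted p = 0.2443) did not pass. Without the first or the second deprived E2F1 array the calls of the 4 were lost, as were those of all other probe sets. Their changes stayed at 3.37 to 3.45 (Usp1 by 1376687_at), 2.98 to 3.06 (Ube2t), 2.86 to 3.17 (Brca2) and 2.29 to 2.49 (Mdc1). The median over all probe sets was -0.14 in this comparison.

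**Figure D2:**
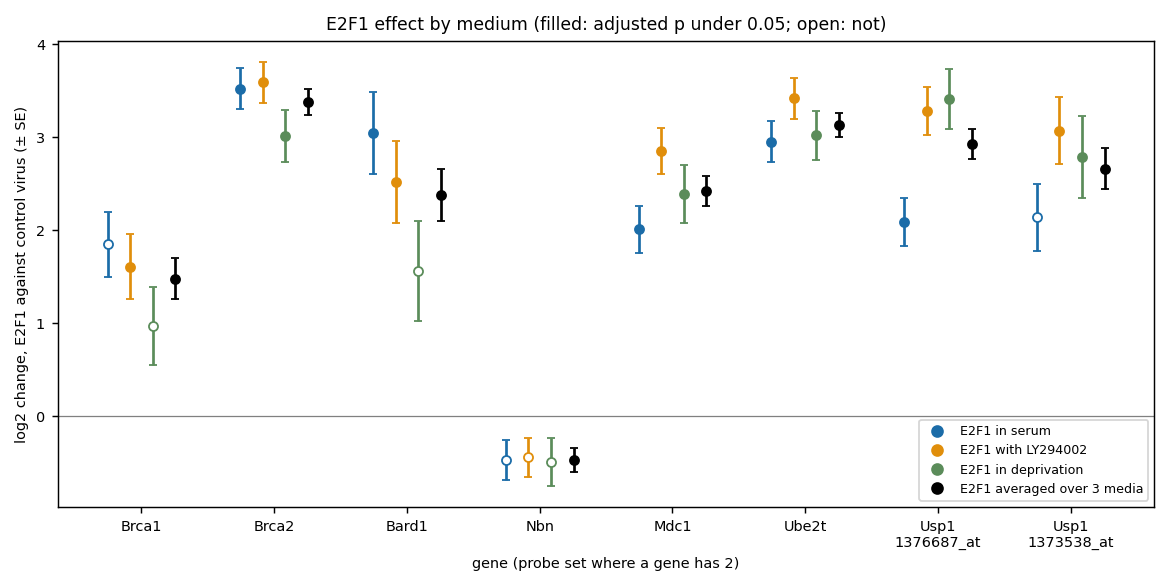
Log2 change with E2F1 against control virus (vertical axis, with SE as bars) for each probe set (horizontal axis) in serum (blue), with LY294002 (orange), in deprivation (green) and averaged (black); filled points passed an adjusted p of 0.05. Brca2 lies between 3.01 and 3.59 in all media, Bard1 is at 3.05, 2.52 and 1.56 in the order named, Usp1 by 1376687_at is lowest in serum (2.09), and Nbn is at -0.49 to -0.44 in each medium.

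Whether the E2F1 effect differed between media was tested as a difference of differences. None of the 7 passed in either comparison, nor did any probe set (0% called), with 998 probe sets at an unadjusted p under 0.05 for LY294002 against serum and 1542 for deprivation against serum. The E2F1 effect on Usp1 (1376687_at) was larger by 1.18 ± 0.37 with LY294002 than in serum (unadjusted p = 0.01306, adjusted p = 0.7348) and by 1.31 ± 0.41 in deprivation (unadjusted p = 0.01336, adjusted p = 0.4155). Its other probe set gave 0.93 ± 0.50 and 0.65 ± 0.56. Mdc1 gave 0.84 ± 0.36 with LY294002 (unadjusted p = 0.04832, adjusted p = 0.785). Bard1 was at -1.49 ± 0.70 in deprivation (adjusted p = 0.5406), with a 95% interval of -3.12 to 0.13, so these arrays leave room for no difference as well as for a several-fold one. The intervals were narrower for Brca2 with LY294002 (-0.67 to 0.80) and for Nbn in both comparisons (-0.65 to 0.71 and -0.79 to 0.74).

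Within the cells of one virus, no change of medium moved any of the 7 genes past the test. LY294002 against none gave 0 calls among the 7 and 0% of all probe sets in cells with either virus, with 1050 (control virus) and 1769 (E2F1) probe sets at an unadjusted p under 0.05. In control virus cells the changes ran from -0.55 ± 0.26 (Usp1 by 1376687_at, adjusted p = 0.7427; -0.70 ± 0.36 by the other probe set) to 0.05 ± 0.35 (Brca1). In E2F1 cells Usp1 (0.63 ± 0.26, adjusted p = 0.4465), Mdc1 (0.59 ± 0.25, adjusted p = 0.4467) and Ube2t (0.46 ± 0.22, adjusted p = 0.4701) had both LY294002 arrays above both serum arrays. How common this was among all probe sets was not counted. Usp1 by 1373538_at gave 0.24 ± 0.36. Mdc1 and Usp1 therefore had LY294002 arrays below the serum arrays in control virus cells and above them in E2F1 cells, which is the difference of 0.84 and 1.18 tested above. Deprivation against serum called 0 of the 7 in control virus cells (0.24% of probe sets) and 0 in E2F1 cells (0.233%). In control virus cells Usp1 had the largest change (-0.97 ± 0.32, unadjusted p = 0.01677, adjusted p = 0.2475), with a signal of 119.6 on the 1 deprived array against 191.3 and 324.3 in serum.

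Among the E2F1 cells, Brca1, Brca2 and Bard1 were lower on both deprived arrays than on both serum arrays. The share of all probe sets that were lower in this way was not counted. In this comparison 3106 probe sets had an unadjusted p under 0.05 by limma, and 40.2% of all were above 0. The changes were -1.80 ± 0.44 for Bard1 (unadjusted p = 0.003809, adjusted p = 0.118), -0.65 ± 0.22 for Brca2 (adjusted p = 0.1853) and -0.68 ± 0.35 for Brca1 (adjusted p = 0.3237), and the Bard1 change passed without the first or without the second E2F1 array with LY294002 (adjusted p = 0.04439 in each case). The other genes stood at 0.10 ± 0.22 (Ube2t), 0.17 ± 0.21 (Nbn), 0.21 ± 0.25 (Mdc1) and 0.35 ± 0.26 (Usp1). The sign of RNA quality moved with the first 3 genes. On the 3 E2F1 arrays with a 3′ to 5′ difference of 0.51 to 0.90, which are the deprived arrays and the second with LY294002, Bard1 was at 28.5 to 74.3, Brca1 at 106.9 to 110.6 and Brca2 at 236.1 to 360.1. On the 3 with 0.18 to 0.26 they were at 136.6 to 241.8, 149.4 to 228.8 and 408.2 to 510.3, with no overlap. How many of all probe sets separate these arrays in the same way was not counted. The separation is therefore not read as particular to these genes. For Mdc1, Ube2t and Usp1 the same sets of arrays overlapped. On the deprived control virus array, with a difference of 0.76, Bard1 (3.40) was below the other control arrays (6.70 to 10.1), Brca2 (18.8) was the second lowest of the 5, and Brca1 (47.6) the second highest. When each array's 3′ to 5′ difference was added to the fit, an alternative chosen after seeing the data, the change from serum to deprivation in E2F1 cells was -1.13 for Bard1 (adjusted p = 0.3135), -0.36 for Brca2 and -0.12 for Brca1. Because each group has its own mean, this fit draws its slope from differences within groups. The widest by far is between the first and second E2F1 arrays with LY294002 (0.26 and 0.90), so these values rest mainly on that pair. Medium and RNA quality cannot be told apart on the deprived arrays, all 3 of which had a raised difference.

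**Figure D3:**
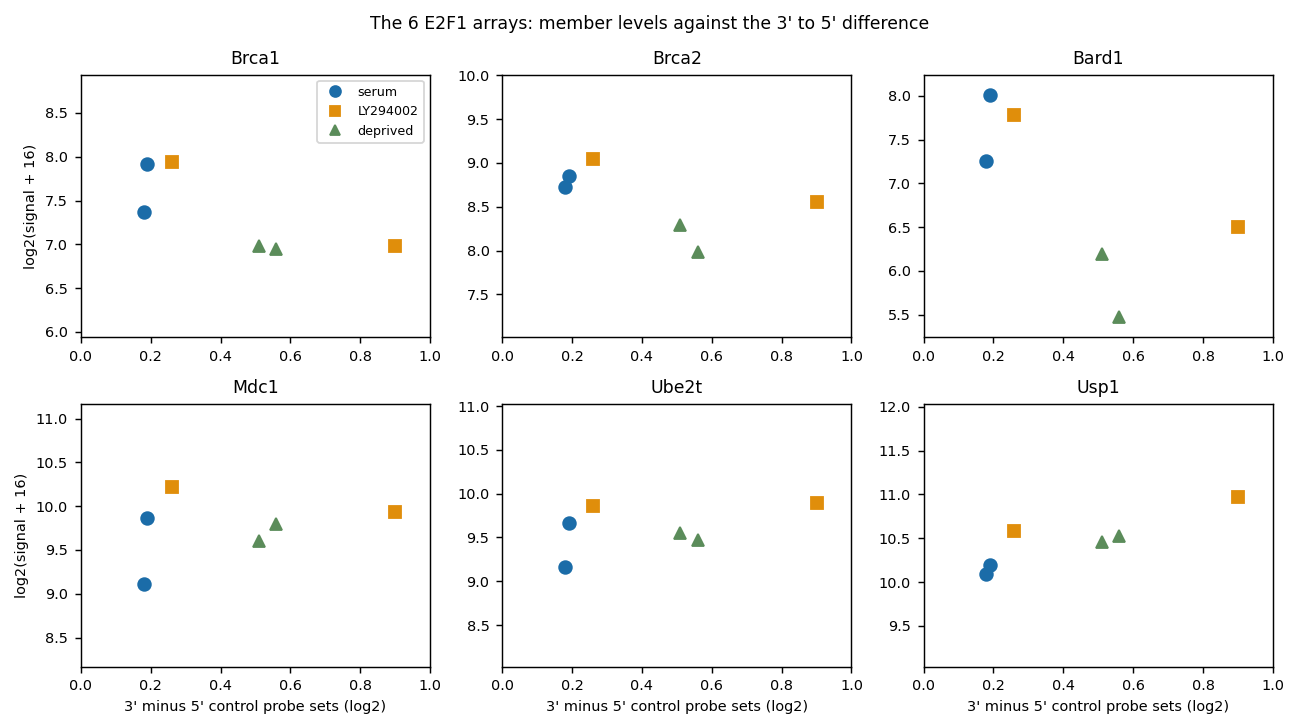
Level of 6 genes on the 6 E2F1 arrays (vertical axis, log2(signal + 16); each panel spans the same range) against the 3′ to 5′ difference of the controls on that array (horizontal axis, log2), with Usp1 by 1376687_at. Brca1, Brca2 and Bard1 are lower on the 3 arrays with a difference of 0.51 to 0.90 than on those with 0.18 to 0.26. For Mdc1, Ube2t and Usp1 these arrays overlap. The share of all probe sets that separate in this way was not counted.

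Over the 11 arrays the 6 genes that rose followed each other closely, with Pearson correlations of 0.81 (Bard1 with Usp1) to 0.99 (Mdc1 with Ube2t, and Brca2 with Ube2t), and all were opposite to Nbn (-0.65 to -0.78). These values describe 11 arrays that share the split by virus. After the mean of each virus was subtracted, Brca1, Brca2 and Bard1 correlated with each other at 0.81 to 0.90, and Mdc1 with Ube2t at 0.79, while Brca1 with Mdc1 and with Ube2t gave 0.25 and Brca1 with Usp1 gave -0.25. The genes most like each member, out of all with 1 symbol, were found by correlation over the 11 arrays without subtracting the virus means. They therefore share the split by virus too. For Brca2 they were Ogg1, a DNA glycosylase of base excision repair (0.991), Ube2t (0.986) and Lmnb2 (0.985). For Bard1 they were Arl6ip1 (0.969), Ccdc22 and its partner Brca1 (0.956 each), and for Brca1 they were Cenpw, a centromere protein (0.966), Gas2l3 and Cntrl (0.963 each). For Ube2t they were Atad2 (0.993), Mdc1 (0.990) and Cep128 (0.989), and for Mdc1 Ube2t (0.990), Mdh1, a malate dehydrogenase (0.983), and Trip13 (0.982). Usp1 was nearest to Ggh (0.993), Pola1, the catalytic subunit of DNA polymerase alpha (0.991), and Lmnb2 (0.987). Nbn was nearest to Atf7ip (0.971), Dbndd2 (0.911) and Nfix (0.910). With the virus means removed, the correlations of the members with these neighbours ran from 0.35 (Brca2 with Ube2t) to 0.97 (Nbn with Atf7ip).

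Some other genes of the same pathways also rose. In 5 lists of 94 genes, of which 50 were measured, 17 rose with E2F1 in the average and 0 fell, 34% against 9.23% of all probe sets, and the median change was 0.30 against -0.04. These lists too were chosen with earlier results of these data known. Of 10 measured strand exchange genes 5 rose (median 0.75). Rad51c, a gene of homologous recombination, had signals of 87.0 to 156.7 on control arrays and 393.2 to 650.7 on E2F1 arrays (2.08 ± 0.16, adjusted p = 0.000555). Rpa2, a subunit of the single-strand binding protein RPA (1.83 ± 0.16), and Rad51ap1, of the same pathway (1.70 ± 0.24), also rose. Of 12 break sensing and checkpoint genes 6 rose (median 0.58), among them H2ax, the histone that MDC1 reads (1.79 ± 0.30), the checkpoint kinase Chek1 (1.10 ± 0.19) and the phosphatase subunit Ppp4c (0.83 ± 0.10). The partners of Nbn did not pass: Mre11 stood at 1.01 ± 0.43 (adjusted p = 0.1565, with signals of 9.76 to 179.3) and Rad50 at 0.11 ± 0.24 (adjusted p = 0.8096). These were picked after their values were seen, because they form a complex with Nbn.

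Of 11 measured genes of the end joining list 3 rose (median 0.03): the Ku subunit Xrcc6 (1.38 ± 0.22), Xrcc1 (1.01 ± 0.16) and Parp2 (0.48 ± 0.13). Not all genes of this list act in end joining alone. The other Ku subunit, Xrcc5, stood at -0.05 ± 0.19, and was also named after its value was seen. Of 10 partners of BRCA1 and BRCA2, 2 rose (median 0.01): Palb2, the bridge between BRCA1 and BRCA2 (0.53 ± 0.13, adjusted p = 0.03126), and the deubiquitinase Bap1 (0.49 ± 0.10, adjusted p = 0.01609). Of 24 genes listed for the Fanconi pathway 7 were measured, and 1 of these rose (median 0.27): Cenpx, a DNA-binding subunit also found at centromeres (0.60 ± 0.15, adjusted p = 0.03248). The genes of FANCD2 and FANCI were not among the 7, and not all of the 7 are core genes. Wdr48, the partner of USP1, was at 0.42 ± 0.12 (adjusted p = 0.05649), again named after its value was seen. In single media, 1 of the 50 rose in serum (Rad51c; 0.29% of all probe sets rose), 7 with LY294002 (3.78%) and 4 in deprivation (2.19%). With LY294002, 1 of the 50 fell, against 1.63% of all probe sets, a share near the background: Rad52, a recombination mediator (-1.07 ± 0.25, adjusted p = 0.04878), which was named after its value was seen.

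**Figure D4:**
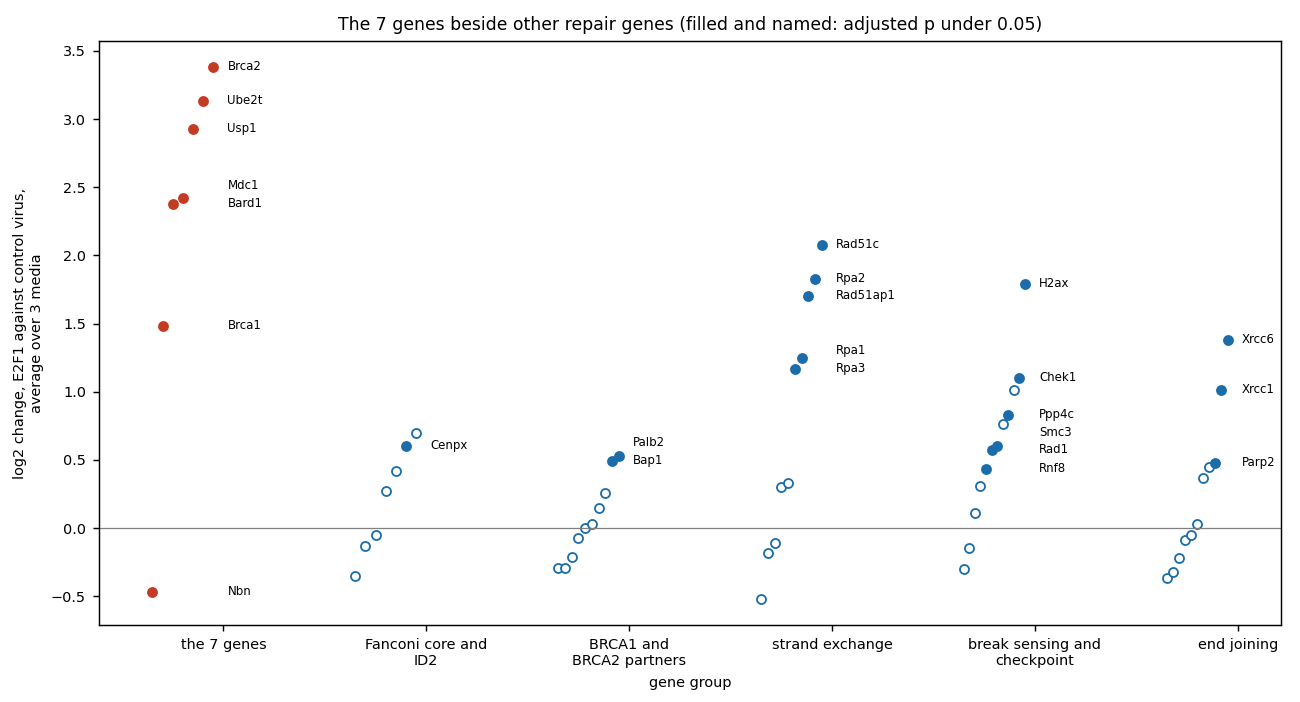
Log2 change with E2F1 averaged over 3 media (vertical axis) for the 7 genes (red, Usp1 by 1376687_at) and for the 50 measured genes of 5 lists of related repair genes (blue), ordered within each group (horizontal axis); filled and named points passed an adjusted p of 0.05. In the lists 17 genes rose, with Rad51c highest at 2.08, and 0 fell; 5 of the 7 genes lie above it.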

How the data were processed

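Arrays were grouped by virus and medium from the sample titles. The authors deposited one table of linear signal intensities, with a column for each array. MAS5 and RMA are both listed in the submitters' processing notes, with no version and no word on which made the table. Every array has a mean of 500 once the lowest and highest 2% of signals are removed. Tests excluded 57 control probe sets.

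Of the 15866 probe sets tested, 12783 have 1 gene symbol, 312 several and 2771 none; 0 symbols changed against the RefSeq gene table (GRCr8). Genes with several probe sets were represented by the one with the highest mean. Signals were taken as log2(signal + 16) without scaling between arrays. Limma 3.58.1 in R 4.3.3 (lmFit, eBayes) fitted a mean for each of 6 groups, with 5 residual and 2.879 prior degrees of freedom; the single deprived control array borrows its spread from the other groups. There were 10 comparisons, each adjusted by Benjamini-Hochberg over all probe sets. Folds were given only where every compared signal was at least 64. The fit was also run on simulated data with independent noise on each array. Those data held no shared effect of RNA quality, so they cannot speak to that limit.

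The 7 genes, the lists and the settings were chosen with earlier results of these data known. Named genes were all members, up to 3 called genes per list and direction by size of change, and the 3 genes most correlated with each member; exceptions are marked. The alternatives were quantile normalization, median centring, offsets of 1 and 64, leaving out the dimmest 30% of probe sets, trend and robust eBayes, array weights, a replicate block, the compared groups alone, leaving out arrays, and other probe sets for Usp1. Promoter windows were searched as exact words.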

Additional observations from a re-analysis of the deposited data

How the results depend on the processing

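The calls rest on few arrays, and a spread shared over all groups carries them. Fits of the compared groups alone called 0 of the 7 in serum, 0 with LY294002 and 0 in deprivation, and without both second arrays with LY294002 the count was 1 in serum and 0 with LY294002. In serum an offset of 1 gave 2 calls in place of 5, and so did the replicate block, which kept Brca2 and Ube2t. Calls over all probe sets fell as well. In serum they went from 56 to 5 with that offset, to 3 with the block and to 0 with the compared groups alone. With LY294002 they went from 858 to 0 with the compared groups alone. Leaving out the deprived control array cannot change the fits in serum and with LY294002. Leaving out any other single array lowered the count in serum, and also with LY294002 except for the second E2F1 array there. In deprivation the calls were lost without either deprived E2F1 array and otherwise kept. In the average only Nbn lost its call. For deprivation against serum in E2F1 cells the count was 1 (Bard1) in place of 0 with array weights and without both second arrays with LY294002, and 0 to 1 leaving out single arrays. Single probe sets were recomputed for the E2F1 effect (average and each medium) and for deprivation in E2F1 cells, and signs changed in the last of these: without the second E2F1 array in serum Mdc1 was at -0.16 (leave-one-out values up to 0.58), Ube2t at -0.15 (up to 0.35) and Usp1 by 1373538_at at -0.25 (up to 0.44), and the last was at -0.05 without the first deprived E2F1 array; none of these values was called. Over 859 recomputed values of the 8 probe sets in these 5 comparisons, 738 kept sign and side of the threshold, 106 lost the call, 11 gained one and 4 changed sign. Many of the kept values could not change sign, since leaving out an array outside the compared groups leaves the estimate as it was. Values uncalled in both fits also count as kept.

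Whether the replicate numbers pair the arrays is not stated in the labels. For same-numbered arrays the deviations from the group means were correlated over 10 pairs of groups. The value was 0.30 between the groups with LY294002 and -0.02 to 0.07 for the other pairs. Such correlations cannot settle whether arrays were paired. With the replicate block the counts were 6 in the average (Nbn at -0.44, adjusted p = 0.06129), 6 with LY294002 and 4 in deprivation. Averaging over serum and LY294002 alone, an alternative chosen after seeing the data, called 6 of the 7, with Nbn at -0.45 (adjusted p = 0.09597). Of the 17 other repair genes that rose in the average, 11 were called in every alternative and 17 were above 0 in each. The dim probe sets set the limit: Bard1 is left out with the dimmest 30%, and the size of its change and of that of Brca2 follows the offset.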
